A study of Mus musculus with 4 samples.

Results

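The genes described here are 10 transcriptional regulators of blood stem cells, Hlf, Mecom, Prdm16, Zfp521, Meis1, Runx1, Eya2, Hmga2, Bmi1 and Ndn. They were taken by name as the probe sets whose platform annotation names that gene alone, under its current or an older symbol such as Evi1 for Mecom, which gave 35 of the 45101 probe sets on the array and 10 of 18193 genes. A probe set is a group of short probes that together report on 1 transcript, and 9 of the 10 genes had more than 1.

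RNA of 4 sorted populations of mouse bone marrow was hybridised to Affymetrix arrays, with 1 array for each of LSK and MP cells from wild-type (WT) and from Fbw7 deficient marrow. LSK cells (Lin-ckit+Sca1+) carry no lineage marker but Kit and Sca1 and contain the stem cells, and MP cells (Lin-ckit+Sca1-) are myeloid progenitors that lack Sca1 and served as the reference for LSK-enriched genes. Mice of both genotypes had received 3 intraperitoneal injections of 20 ug per g polyI:C, a synthetic double-stranded RNA that triggers an interferon response, and marrow was taken 2 weeks later. Marrow was pooled from 3 mice per genotype before the sort, so each pair of LSK and MP arrays shares its animals and each array stands for 1 pool. The sources used here do not state the Fbw7 allele, how it was deleted, or the strain, age and sex of the animals. Fbw7 is the substrate receptor of an SCF ubiquitin ligase, encoded by Fbxw7. With 1 array per group there is no replicate error and no test, and every difference below lies between single arrays.

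Blood stem cells are kept in their state by a small set of DNA-binding proteins and chromatin regulators that act on one another's genes. Hlf, Mecom, Prdm16 and Meis1 are needed for the maintenance of long-term stem cells in the mouse, and their RNA declines as progenitors commit to a lineage. Runx1 and Bmi1 have wider roles and stay on in progenitors, while Hmga2 is best known for its high level in fetal stem cells, where the RNA-binding protein Lin28b shields it from let-7 microRNAs.

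The promoters of 4 of these genes are shown because 3 of them were lower together in Fbw7 deficient LSK cells and the other was not. Each is the stretch of 250 bases before an annotated RefSeq start in GRCm38.p6, read 5′ to 3′ on the gene's strand. Capitals mark matches, on either strand, to 8 short motifs: for RUNX factors the letters TGTGGT, for GATA factors the letters AGATAA, for ETS factors the letters CCGGAA, for PAR bZIP factors such as Hlf the letters TTANNTAA, for MEIS factors the letters TGACAG, the E-box with the letters CAGNTG, the CCAAT box, and the cyclic AMP response element (CRE) with the letters TGACGTCA.
Hlf, chr11:90390918-90391167, minus strand: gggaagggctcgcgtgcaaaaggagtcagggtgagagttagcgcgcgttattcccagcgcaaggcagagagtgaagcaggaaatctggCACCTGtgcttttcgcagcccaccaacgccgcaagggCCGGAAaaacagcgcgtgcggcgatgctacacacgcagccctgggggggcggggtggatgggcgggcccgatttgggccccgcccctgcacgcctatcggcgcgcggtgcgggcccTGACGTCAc
Mecom, the start farther upstream of 2, chr3:30509760-30510009, minus strand: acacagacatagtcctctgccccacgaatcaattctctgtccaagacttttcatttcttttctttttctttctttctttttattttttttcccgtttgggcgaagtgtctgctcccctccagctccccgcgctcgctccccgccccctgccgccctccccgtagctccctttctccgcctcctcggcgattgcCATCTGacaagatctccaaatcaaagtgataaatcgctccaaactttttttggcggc
Meis1, chr11:19018970-19019219, minus strand: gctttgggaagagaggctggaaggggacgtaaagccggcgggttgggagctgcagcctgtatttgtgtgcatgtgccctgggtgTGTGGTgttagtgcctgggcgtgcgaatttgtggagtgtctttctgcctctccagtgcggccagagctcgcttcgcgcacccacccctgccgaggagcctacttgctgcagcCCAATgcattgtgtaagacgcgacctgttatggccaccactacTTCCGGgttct
Hmga2, chr10:120476470-120476719, minus strand: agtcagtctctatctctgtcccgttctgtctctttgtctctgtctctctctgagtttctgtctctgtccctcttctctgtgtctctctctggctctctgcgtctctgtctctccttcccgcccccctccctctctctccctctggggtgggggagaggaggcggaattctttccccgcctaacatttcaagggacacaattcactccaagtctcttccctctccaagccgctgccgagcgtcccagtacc

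RefSeq promoter windows were matched for 8 of the 10 genes, 10 windows in all. Zfp521 was not matched, because genes of the group on its chromosome were left out of this step. Eya2 has no entry among the promoters. The shares over all promoters given below keep that chromosome. Both Zfp521 and Eya2 were also past 2-fold on the lower side in Fbw7 deficient LSK. The comparison of windows therefore does not cover all genes that were lower. The 3 windows shown of genes that were lower in Fbw7 deficient LSK do not share a match. Hlf and Meis1 each hold an ETS match, which 12.0% of 32851 promoters hold. Hlf and Mecom each hold an E-box, which 44.8% of promoters hold, and the RUNX match of Meis1 occurs in 14.0%. The CRE letters, of which the first lies 9 bases before the Hlf start, occur in 1.55% of promoters. The GC content of the window shown was 67.2% for Hlf, 50.8% for Mecom, 59.6% for Meis1 and 56.4% for Hmga2. The median over all promoters was 52.4%. A match describes letters in this window and is not a binding site.

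In wild-type cells 7 of the 10 genes were at least 2-fold higher in LSK than in MP, and 4 of the 10 were under the level filter described here in MP. The values are intensities on a linear scale as summarised by the authors, and differences are given as log2. The median of all values on the array, 157, is used as a level filter: a value under it may be background, so a fold against it is not exact. Where 4 values of a gene are given together, wild-type comes before Fbw7 deficient and LSK before MP. A gene stands at its brightest probe set unless another is named, and its level is compared between arrays, not with that of another gene. All 10 genes had a probe set that reached 157 on at least 1 array, as did 12239 of all 18193 genes. On the wild-type LSK array 10 of the 10 brightest probe sets reached it, on Fbw7 deficient LSK 9, on wild-type MP 6 and on Fbw7 deficient MP 5.

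**Figure D1:**
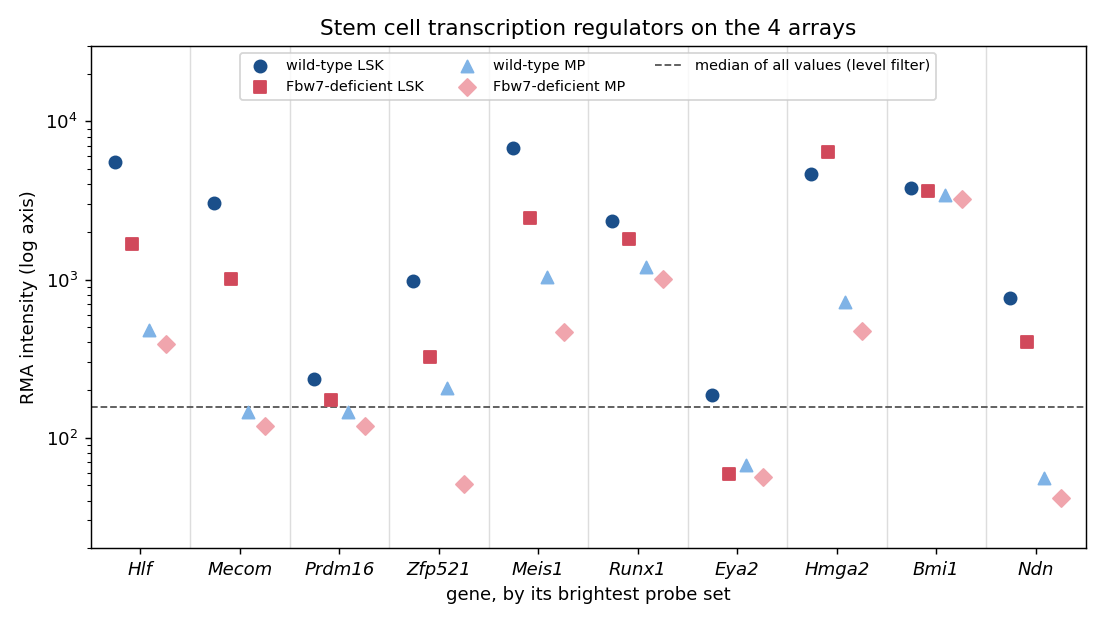
Intensity of the brightest probe set of each gene on the 4 arrays (log axis), 1 symbol per array, with the level filter of 157 as a dashed line. Hlf, Mecom, Zfp521 and Meis1 step down from wild-type LSK to Fbw7 deficient LSK and again to MP, Hmga2 is highest in Fbw7 deficient LSK (6439), and Bmi1 lies between 3247 and 3807 on all 4 arrays.

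Hlf encodes a PAR bZIP transcription factor. In LSK it read 5515 in wild-type and 1677 in Fbw7 deficient cells, and in MP 478 and 391. The wild-type LSK array thus stood far above the other LSK array, and the MP arrays lay close together. This is 3.29-fold lower in Fbw7 deficient LSK (log2 -1.72, the 27th lowest of 12239 genes) and log2 -0.29 in MP. Its other probe set read 1788, 744, 202 and 177, 2.40-fold lower in LSK. Both probe sets of Hlf therefore passed 2-fold in LSK and neither did in MP.

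Mecom encodes a PRDM zinc finger factor, long known as the oncogene Evi1. Its bright probe set read 3043 in wild-type LSK against 1006 in Fbw7 deficient LSK, and 145 and 119 in MP, where both values were under the level filter. The LSK genotype difference was log2 -1.60, 3.03-fold lower, and that in MP was log2 -0.29. Wild-type LSK over MP was 21.0-fold, the 3rd highest difference of all 12239 genes. The other 2 probe sets annotated to Mecom stayed between 22.9 and 116 on all 4 arrays, under the filter, and report nothing on it here. Every statement on Mecom thus rests on 1 probe set.

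Prdm16, a relative of Mecom, was dim, and its probe sets did not move alike. The probe set with the highest mean read 235 and 173 in LSK and 145 and 118 in MP, a log2 difference of -0.44 in LSK and -0.29 in MP. Another, which was the brightest on the wild-type LSK array, read 411, 91.3, 49.4 and 45.6, or 4.50-fold lower in Fbw7 deficient LSK (log2 -2.17) with 3 of its 4 values under the filter. Its remaining 2 probe sets never reached 157 and had log2 differences of -0.72 and -0.21 in LSK. All 4 were lower in Fbw7 deficient LSK, and 1 passed 2-fold.

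Zfp521, a zinc finger cofactor that restrains differentiation, was lower in both populations. In LSK it read 974 in wild-type and 324 in Fbw7 deficient cells, 3.01-fold lower (log2 -1.59). In MP it read 205 and 51.0 (log2 -2.01, the 16th lowest of all genes), the second of these under the filter. The MP values lie below both LSK values. Its other probe set was much flatter, at 274, 223, 181 and 163, with log2 differences of -0.30 in LSK and -0.15 in MP.

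Meis1, a TALE homeodomain factor that binds DNA together with PBX and HOXA proteins, was likewise lower in both. Its brightest probe set read 6798 in wild-type LSK against 2450 in Fbw7 deficient LSK, and 1041 and 464 in MP. That is 2.77-fold lower in LSK (log2 -1.47) and 2.24-fold lower in MP (log2 -1.17). A second probe set read 706, 510, 225 and 149 (log2 -0.47 and -0.60), and a dim one had log2 differences of -0.30 and -0.12. The direction was the same on all 3, and 2-fold was passed on the brightest only, which is of the kind (suffix _a_at) that reads several transcripts of a gene.

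Eya2, a phosphatase that also acts as a transcriptional coactivator, has 1 probe set. It read 186 in wild-type LSK and 59.1 in Fbw7 deficient LSK, and 67.4 and 56.4 in MP. Only the wild-type LSK array was above the filter, so Eya2 entered the filtered genes through the array on which it is high, and its log2 difference of -1.65 in LSK is not an exact size.

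Ndn encodes necdin, a MAGE family protein that restrains the cell cycle. On its brightest probe set it read 764 in wild-type LSK against 401 in Fbw7 deficient LSK, and 55.3 and 41.4 in MP. The LSK arrays lie well above the MP arrays, with both MP values under the filter. The LSK genotype difference was log2 -0.93, short of 2-fold. Of its 8 probe sets, 5 reached the filter, and their LSK differences ran from log2 -1.41 to -0.21. The one past 2-fold read 191 and 71.9 in LSK. Several of these probe sets are of the kind marked as cross-reacting (suffix _x_at).

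Runx1, the DNA-binding subunit of core binding factor, showed small differences that split by probe set. The brightest read 2336 in wild-type LSK against 1810 in Fbw7 deficient LSK, and 1208 and 1008 in MP (log2 -0.37 in LSK and -0.26 in MP). The 2 others that were lower in Fbw7 deficient LSK had log2 differences of -0.59 and -0.53, and both were also lower in Fbw7 deficient MP (log2 -0.32 and -0.34). The remaining 3 were higher in Fbw7 deficient LSK, by log2 0.27, 0.23 and 0.38, and in wild-type cells these 3 had LSK values no higher than MP (log2 -0.01, -0.03 and -0.22). All 6 reached the filter on every array, and none reached 2-fold in either population. Runx1 has 2 annotated starts in the RefSeq promoter table, and which transcripts each probe set reads was not analysed here.

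Hmga2, an AT-hook protein that bends DNA in chromatin, was the exception. On its brightest probe set it read 4622 in wild-type LSK against 6439 in Fbw7 deficient LSK, and 722 and 476 in MP. It was 1.39-fold higher in Fbw7 deficient LSK (log2 0.48) and lower by log2 -0.60 in Fbw7 deficient MP, neither of which passes 2-fold. The other 3 probe sets had log2 differences of 0.19, 0.25 and 0.87 in LSK and of -0.30, -0.31 and -0.28 in MP, so all 4 were higher in Fbw7 deficient LSK and lower in Fbw7 deficient MP. The one with the largest LSK difference was dim (110 and 200). LSK exceeded MP 6.40-fold in wild-type cells and 13.5-fold in Fbw7 deficient cells, where Hmga2 had the 7th highest such difference of all genes.

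Bmi1, a subunit of Polycomb repressive complex 1, was close to level on its brightest probe set, which gave 3807 in wild-type LSK against 3622 in Fbw7 deficient LSK, and 3428 and 3247 in MP, for log2 differences of -0.07 and -0.08. The other probe set read 1293, 990, 810 and 849 (log2 -0.39 and 0.07).

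**Figure D2:**
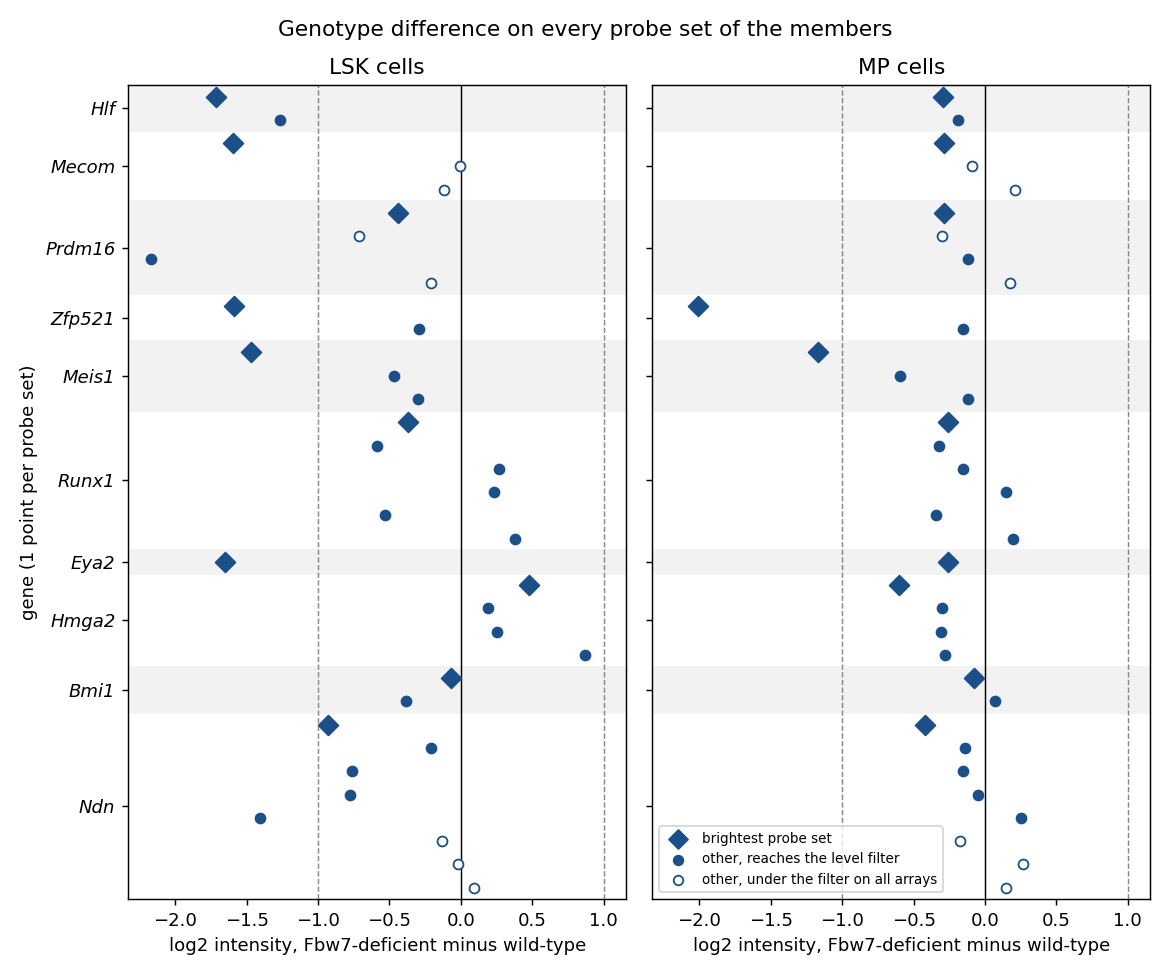
Log2 difference between genotypes on every probe set of the 10 genes, in LSK (left) and MP (right); diamonds are brightest probe sets, filled circles others that reach 157 on an array, open circles others that never do, and dashed lines mark 2-fold. In LSK 8 probe sets lie past 2-fold on the lower side and none on the higher, and the 4 probe sets of Hmga2 lie right of 0 in LSK and left of it in MP.

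Across the genes, 5 of 10 passed 2-fold on the lower side in LSK on their brightest probe set (Hlf, Mecom, Zfp521, Meis1 and Eya2) and none was 2-fold higher, where 1.95% of all 12239 genes were lower and 1.79% higher. Eya2 is counted although its Fbw7 deficient LSK value is under the level filter; among the 9 genes with both LSK values at the filter, 4 were 2-fold lower, with a median of -0.93, where 1.76% of 11336 such genes were. Over all 10, the median log2 difference was -1.20, against 0.00 over all genes (49.2% of which were below 0), and 9 of the 10 were below 0. With the mean of all probe sets of a gene in place of the brightest, 2 of 10 passed, Hlf and the dim Eya2, and the median was -0.66; Mecom, Zfp521 and Meis1 were then at log2 -0.57, -0.94 and -0.75. By probe set, 8 of the 28 that reached the filter were 2-fold lower (1.87% of all such probe sets) and 21 were below 0. The 8 include both probe sets of Hlf. They also include those of Eya2, Prdm16 and Ndn that reached the filter on the wild-type LSK array alone, where they are high. The filter thus favours a lower call for these probe sets. The 10 genes were proposed as a group with earlier results of these arrays known, so their count is a description.

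In MP 2 of 10 genes were 2-fold lower in Fbw7 deficient cells, Zfp521 and Meis1, and none higher, against 1.49% and 0.825% of all genes. On brightest probe sets all 10 were below 0, with a median of -0.29, where 50.4% of all genes were below 0 and the median was -0.002. By probe set, 24 of the 28 that reached the filter were below 0 and 4 above. Of the 5 genes with both MP values at the filter 1, Meis1, was 2-fold lower, against 1.16% of such genes. When probe sets of shared or cross-reacting kinds are left out, Meis1 stands at another probe set, with log2 -0.47 in LSK and -0.60 in MP, and 1 of 10 genes is 2-fold lower in MP.

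**Figure D3:**
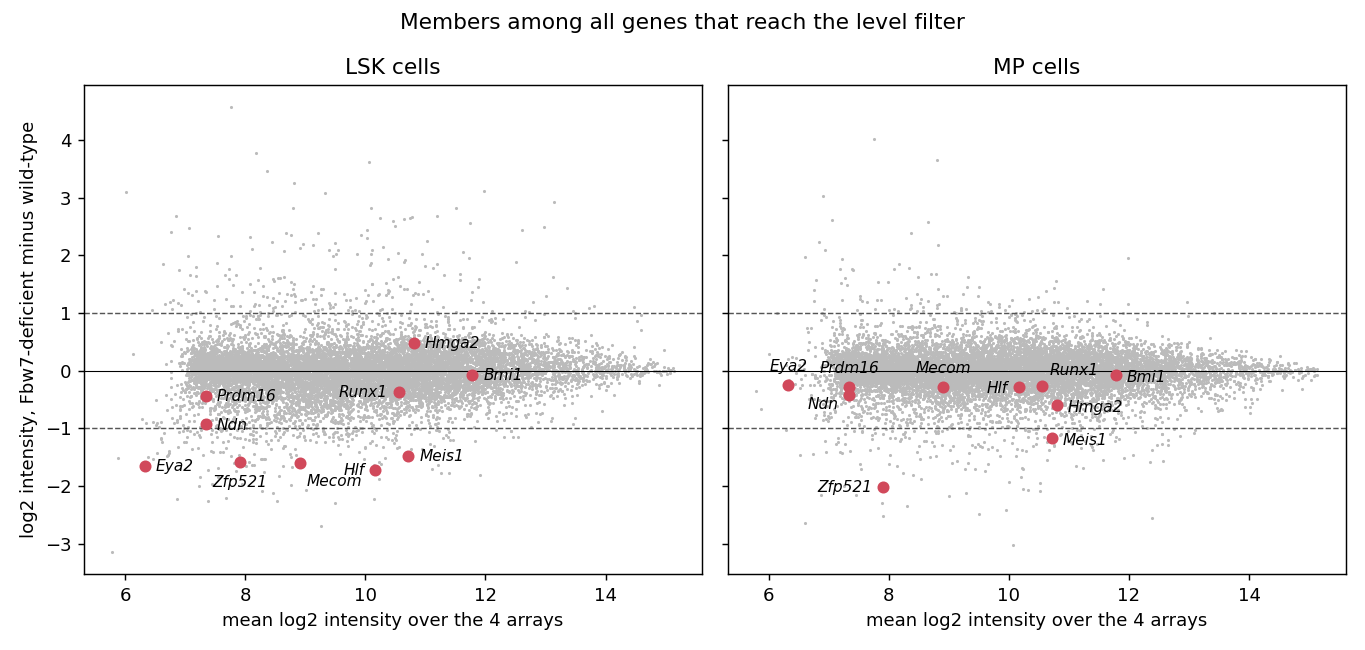
Mean log2 intensity over the 4 arrays against the log2 difference between genotypes in LSK (left) and MP (right), for all 12239 genes that reach the level filter (grey) and the 10 genes (red, named); dashed lines mark 2-fold. In LSK, Hlf, Mecom, Zfp521, Meis1 and Eya2 lie under the lower line at levels from dim to bright, and in MP Zfp521 and Meis1 do.

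The genotype difference in LSK minus that in MP was log2 -1.42 for Hlf, -1.31 for Mecom and -1.40 for Eya2, past 2-fold on the lower side (1.32% of all genes). It was log2 -0.31 for Meis1, 0.42 for Zfp521 and 1.08 for Hmga2 (2.2% of all genes passed 2-fold on that side). Both MP values of Mecom and of Eya2, the Fbw7 deficient LSK value of Eya2 and the Fbw7 deficient MP value of Zfp521 are under the level filter, so their differences are not exact sizes. Of the 5 genes with all 4 values at the filter, Hlf was past 2-fold on the lower side and Hmga2 on the higher (0.897% and 1.89% of 11032 such genes). These differences rest on 4 single arrays and were not tested.

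As to population, 7 of 10 genes of wild-type cells were at least 2-fold higher in LSK and none was lower, against 5.05% and 2.4% of all genes, with a median of 2.46. Mecom (log2 4.39), Ndn (3.79), Hlf (3.53), Meis1 (2.71), Hmga2 (2.68), Zfp521 (2.25) and Eya2 (1.46) were the 7. Runx1 was at log2 0.95, Prdm16 at 0.70 and Bmi1 at 0.15. In Fbw7 deficient cells 6 of 10 were 2-fold higher in LSK than in MP (3.86% of all genes; 1.63% were lower), all of the former but Eya2 (log2 0.07), and the median was 2.25. Mecom was then at log2 3.08, Ndn at 3.28, Hlf at 2.10, Meis1 at 2.40, Zfp521 at 2.67 and Hmga2 at 3.76. With both values of a comparison at the filter, 4 of 6 genes were 2-fold higher in LSK in wild-type cells (Hlf, Zfp521, Meis1 and Hmga2; 4.44% of such genes) and 3 of 5 in Fbw7 deficient cells (3.1%). The 2 comparisons that use the wild-type LSK array share its chance errors.

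On the linear scale, the value of Fbw7 deficient LSK can be placed between those of wild-type LSK and wild-type MP. On brightest probe sets Hlf had covered 76.2% of that distance, Mecom 70.3%, Meis1 75.5%, Zfp521 84.6%, Ndn 51.3% and Runx1 46.6%. Prdm16 gave 68.4%, Eya2 107% and Bmi1 48.8%. Bmi1 was close to level on this probe set (log2 -0.07 in LSK), so a share of that size can come with a very small difference. Other probe sets at the filter gave 65.8% for Hlf, 40.7% and 53.6% for Meis1, 54.8% for Zfp521 and 44.0% to 73.7% for Ndn. Those of Prdm16 and Bmi1 gave 88.4% and 62.8%. For Runx1 the other probe sets ran from 71.5% to 2091%, as some were near level between wild-type LSK and MP. The wild-type LSK value enters both parts of this measure, so its error does too. The wild-type MP values of Mecom, Ndn, Prdm16 and Eya2 are under the filter, and the measure was not summarised over all genes. Hmga2 lay on the far side of wild-type LSK, at -46.6%. Genes with a like excess in wild-type LSK over MP, such as Meis1 (log2 2.71) and Hmga2 (log2 2.68), therefore differed in direction between the LSK genotypes. On bulk arrays, fewer cells that express a gene and less RNA per cell cannot be told apart.

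Genes of other cells also differed between the LSK arrays. Of 14 listed committed myeloid progenitor genes 13 reached the filter; all 13 were above 0 in Fbw7 deficient LSK and 8 were 2-fold higher, and their summed intensity was 62517 in wild-type LSK against 123579 in Fbw7 deficient LSK, and 162233 and 156358 in MP. Elane, the gene of neutrophil elastase, read 1322, 9986, 23552 and 21158. Of 16 listed erythroid genes 13 reached it, of which all 13 were above 0 in LSK and 9 were 2-fold higher, with sums of 23526, 50142, 68914 and 104950. Among genes of mature lineage cells 3 of 11 were 2-fold higher in LSK, among them Mmp8 and Ltf of neutrophils, and among plasma cell and stromal genes 5 of 11 were, including Igha (221 to 2696). The defining T cell gene Cd3e read 239 and 303. Of the 11 mature lineage genes 10 or 11 reached the level filter on each array, and of the 11 plasma cell and stromal genes 9 to 11. The part of these 4 lists in the lower values of Hlf, Mecom, Meis1 and Zfp521 was not tested. As a sign of RNA quality, the Gapdh control probe set at the 3' end exceeded that at the 5' end 4.30-fold on the wild-type LSK array and between 2.60-fold and 2.95-fold on the other 3, and its part was not tested either. Fbxw7 read 1355, 1103, 691 and 958 on its brighter probe set. Which part of the gene was removed is not stated in those sources, so this does not check the genotypes.

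Among stem cell transcription factors outside the group, 35 of 40 listed reached the filter. Of these, 3 were 2-fold lower in Fbw7 deficient LSK and none higher, with a median of -0.33 and 28 below 0. Over all genes 1.95% were 2-fold lower, 1.79% were higher and 49.2% were below 0. The 3 listed factors were Gata3 (225 to 79.9, log2 -1.49), Ikzf2 (5082 to 2102, log2 -1.27), which encodes Helios, and Mllt3 (1104 to 498, log2 -1.15). Gata3 reached the filter on the wild-type LSK array alone, where it is high, so its difference is not an exact size. Ikzf2 had another probe set at log2 0.08 and Mllt3 one at log2 -0.01. Gata2, a zinc finger factor of stem and early progenitor cells, was at log2 -0.89. In MP 3 of the listed factors were 2-fold lower, where 1.49% of all genes were. Among them were Egr1 (log2 -1.09) and, on its brightest probe set, Sox4 (log2 -1.46). The 7 probe sets of Sox4 at the filter ran from log2 -1.46 to 0.18 in MP, and 1 of them passed 2-fold.

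The partners of each gene followed no single direction. For Hlf, the PAR bZIP relatives Dbp (1922 to 1095, log2 -0.81) and Tef (log2 -0.34, and 0.10 on another probe set) were lower in Fbw7 deficient LSK, and Nfil3, a repressor that binds the same DNA element, was at log2 0.56; none of the 6 measured genes of that list passed 2-fold. For Mecom and Prdm16, none of 10 PRDM genes and corepressors passed 2-fold, and their median was -0.04, with the corepressors Ctbp1 at log2 -0.19 and Ctbp2 at 0.21. For Meis1, none of 6 TALE and HOXA partners passed on its brightest probe set. Pbx3 was at log2 -0.26 on that probe set and at -1.90 on its other one (396 to 106, the latter under the filter). Hoxa9 read 12858 and 9114 in LSK and 4566 and 2922 in MP (log2 -0.50 and -0.64), so it was lower in both populations, as Meis1 was, on its brighter probe set, while another was at log2 0.08 in LSK.

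For Bmi1, the other Polycomb complex 1 genes were lower by small amounts: 14 of 16 were below 0 in LSK, none passed 2-fold and the median was -0.25, led by Phc1 (2175 to 1272, log2 -0.77). For Runx1, its relative Runx3 was 2-fold lower in LSK (1198 to 567, log2 -1.08; another probe set at 0.07), and Cbfb, which encodes the partner subunit, was at log2 -0.24 in LSK and -0.84 in MP. For Eya2, Eya1 was at log2 -0.62 (another probe set at -1.75) and Dach1, a corepressor in the same network, at -1.16 (2646 to 1184; another probe set at -0.20), the one of 5 genes past 2-fold on its brightest probe set. For Ndn, the MAGE gene Maged2 read 598 and 298 in LSK, just past 2-fold, and Maged1 419 and 416.

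For Hmga2, 3 of the 7 listed genes of the let-7 axis reached the filter, and their brightest probe sets were above 0 in LSK, as Hmga2 was. In MP, where Hmga2 was lower, Lin28a (log2 0.43) and Igf2bp3 (0.39) were above 0 and Igf2bp1 (-0.20) was below. In wild-type cells all 3 were lower in LSK than in MP, unlike Hmga2. Lin28a reached the filter on the Fbw7 deficient arrays alone, at 189 in LSK and 200 in MP. It was the one of the 3 past 2-fold in LSK, which is not an exact size. Igf2bp3 read 680 and 1341 in LSK (log2 0.98, with 5 probe sets between 0.46 and 1.25). Igf2bp1 read 497 and 645, with another probe set at log2 -0.22. The Lin28b probe set did not reach the filter on any array. For Zfp521, the B cell factor Ebf1, whose activity Zfp521 is known to restrain, read 94.8 in wild-type LSK and 220 in Fbw7 deficient LSK, and 112 and 65.3 in MP, so that 1 of its 4 values reached the filter.

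**Figure D4:**
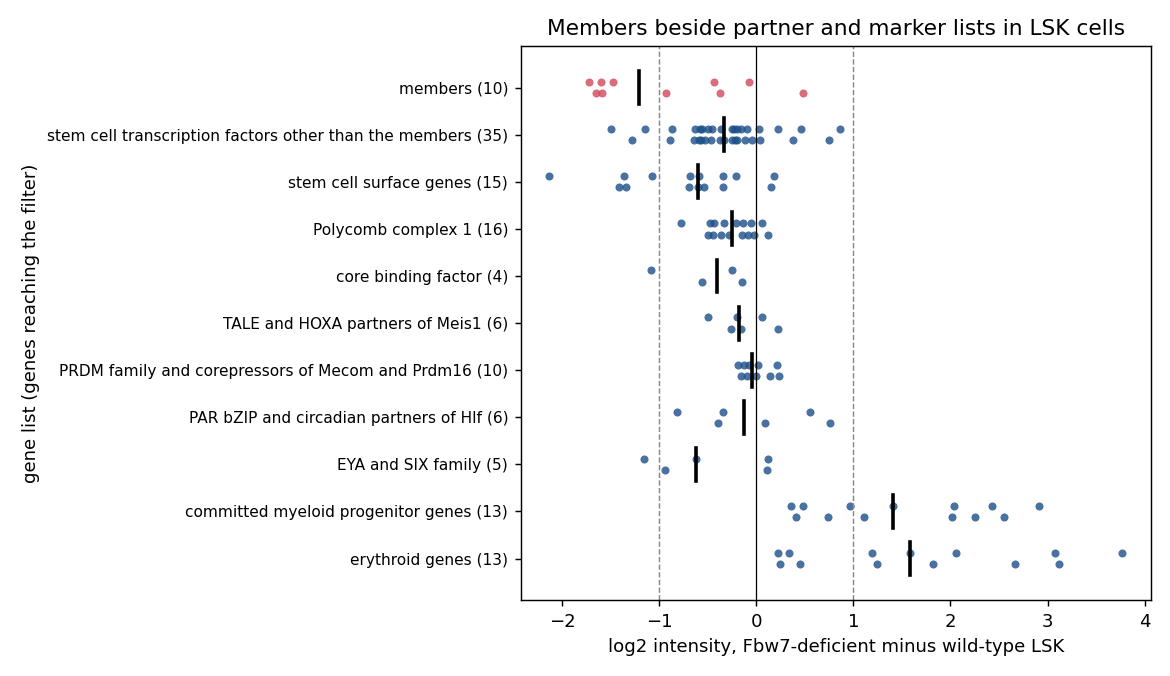
Log2 difference between genotypes in LSK for the 10 genes (red) and for partner and marker lists (blue); each point is a gene at its brightest probe set, bars are list medians, the number of genes stands in brackets, and dashed lines mark 2-fold. The 10 genes have a median of -1.20 and the other stem cell transcription factors of -0.33. The list labelled stem cell surface genes, which also holds other markers, has a median of -0.60, committed myeloid genes of 1.41 and erythroid genes of 1.58.

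A list of surface and other marker genes of stem cells had 15 genes at the filter (17 listed). Of these, 13 were below 0 in Fbw7 deficient LSK, with a median of -0.60. At 2-fold, 5 were lower and none higher, against 1.95% and 1.79% of all genes. The 5 were Mmrn1, Tek, Itga2b, Thy1 and Procr. Procr, the endothelial protein C receptor used to sort stem cells, read 2270, 1078, 187 and 116.

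Genes whose pattern over the 4 arrays was most like that of a member were found by the root mean square distance of centred log2 values over all 12239 genes. For Hlf these were Mamdc2 (distance 0.18), the purinergic receptor gene P2ry10 (0.22) and Csgalnact1 (0.24), a chondroitin sulfate enzyme gene. Mamdc2 read 785, 294, 96.2 and 69.8. For Mecom they were Pglyrp2 (0.14), Ndn (0.26) and Procr (0.28), of which Pglyrp2 read 1631, 695, 80.4 and 67.3. For Meis1 they were Kbtbd11 (0.12), Basp1 (0.13) and Epb41l4b (0.14). Basp1 read 1897, 598, 304 and 109, lower in Fbw7 deficient cells of both populations as Meis1 was. The gene nearest to Prdm16 was Rbak, and that nearest to Runx1 was Zfp148.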

How the data were processed

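Gene expression was measured on 4 Affymetrix arrays, 1 per group, and groups were taken from the sample titles. Per the labels' protocols, 20 ng of total RNA was amplified in 2 cycles and labelled with biotin, which favours sequence near the 3' end of transcripts. Each deposited value is a linear intensity of 1 probe set, made by the authors with RMA (per the submitters' processing notes; its version is not stated there). The method makes arrays alike in distribution (medians 155 to 159), so shifts shared by most genes are not seen, and it compresses differences of dim genes.

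Values were taken to log2 and subtracted between arrays with Python 3.11.15 and pandas 2.3.3. Of 45101 probe sets, 34945 name 1 gene. For 34741 of these the symbol was taken by gene ID from a RefSeq table of GRCm38.p6, whether or not it changed. A gene stands at its probe set of highest mean log2, is kept where its highest value reaches the median of all values (157), and is called at 2-fold. The deposited arrays carry no replicate, so their number limits the precision. The steps were tested on simulated data.

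The members, 15 gene lists (200 genes, 180 on the array, 147 at the filter) and the rule for named genes were chosen with earlier results of these data known. The rule takes all members, up to 4 genes per list by LSK difference and up to 2 by MP difference, Fbxw7, and the 3 genes nearest in pattern to 5 members; fewer are printed. Outside the rule, Cd3e, Tef, Lin28b and the chromosomal neighbours were named after their values were seen. Alternatives were other filters, the mean of all probe sets, leaving out shared kinds of probe set, centring, quantile normalization, 50 added before log2, a floor at the lower quartile, 1.5-fold, and, added after seeing the data, both arrays of a comparison at the filter.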

Additional observations from a re-analysis of the deposited data

Results flagged for a closer look

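Genotype differences of opposite direction in LSK and MP, at least 1 apart on the log2 scale, were found on 3 probe sets of the 10 genes. By brightest probe set, Hmga2 alone of the 10 genes showed this, where 277 of 12239 genes did (2.26%). The share over all probe sets was not counted, so the 3 probe sets have no matching figure. The differences between populations were not tested, since each group is 1 array. On the brightest probe set of Hmga2 the LSK difference minus the MP difference was 1.08, and on its dimmest probe set, which reached 157 on the Fbw7 deficient LSK array alone, it was 1.15. On 1 probe set of Ndn it was -1.66, with both MP values (29.6 and 35.1) under the level filter; the other 4 Ndn probe sets that reached the filter were lower in Fbw7 deficient cells of both populations.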

How the results depend on the processing

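Of 312 values of single members under 8 alternatives, 305 kept their side of 2-fold, 6 no longer passed it, 1 newly did (Prdm16 in wild-type LSK over MP, log2 1.10 with the mean of all probe sets), and none past 2-fold turned its direction. With the mean of all probe sets, 2 members were 2-fold lower in LSK and 1 in MP, and the medians were -0.66 for the LSK genotypes, 1.53 for wild-type LSK over MP and 1.25 for the Fbw7 deficient pair. Without shared kinds of probe set, 1 member was 2-fold lower in MP, and these medians were -0.62, 1.95 and 1.94. With the filter at the 75th percentile, which keeps 8 members, the medians over MP were 2.69 and 2.53. With 50 added before log2 they were -0.98 for the LSK genotypes and 1.93 for the Fbw7 deficient pair. Centring the arrays moved the median of all genes in wild-type LSK over MP from -0.02 to -0.13 and changed no call of a member. At 1.5-fold the counts were 6 lower in LSK and 3 in MP. With both arrays of a comparison at the filter, chosen after seeing the data, 1 of 5 members was 2-fold lower in MP, 4 of 6 and 3 of 5 were higher in LSK than in MP in wild-type and Fbw7 deficient cells, and the median of the LSK genotypes was -0.93. No paired analysis was possible because each group has 1 array and the genotypes share no pool. LSK minus MP differences lie within a pool, and a fit of LSK against MP with the pool as a block, which takes the 2 genotypes as replicates, was not run. RMA values carry no detection call, so the depth of dim genes (Eya2, Prdm16, Ndn in MP) is limited by background.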

Other observations

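The chromosomal neighbours of the 10 genes were within 2-fold between the LSK genotypes. Of the 20 measured genes next to a member on either side in RefSeq order, none was 2-fold lower or higher in Fbw7 deficient LSK. As 1.95% and 1.79% of all genes were, a count of none is usual for 20 genes and says nothing particular of the neighbours. Their log2 differences ran from -0.63 for Spred2, next to Meis1, to 0.40 for Chrna7, next to Ndn. Commd3, which lies next to Bmi1, read 1213 in wild-type LSK against 1316 in Fbw7 deficient LSK, and 1687 and 1642 in MP, and so was lower in LSK than in MP while Bmi1 was not. In MP, Mmd, next to Hlf, read 1459 in wild-type and 438 in Fbw7 deficient cells (log2 -1.74), where Hlf itself was at log2 -0.29. Among the members, the patterns over the 4 arrays lay closest for Prdm16 and Runx1 (root mean square distance 0.14) and Mecom and Ndn (0.26). Next came Prdm16 and Bmi1 (0.28) and Zfp521 and Meis1 (0.30). Genes that differ little between arrays, such as Bmi1, lie close together by this measure. Prdm16 stands here at its flatter probe set, while another was 4.50-fold lower in Fbw7 deficient LSK.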
